A study of Mus musculus with 14 samples.

Results

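The members are the detected solute carrier probes of a mouse expression array, 215 probes of 166 genes. Of 474 probes (326 genes) whose platform symbol has Slc followed by digits and a letter, 4 probes of Slc2a1, Slc2a3 and Slc7a3 were left out, and 255 missed the detection limit, a detection p under 0.01 on 2 or more of the 14 arrays. Of those, 230 were detected on no array and 25 on 1 array. The members were thus chosen by their detection p-values, without regard to group. Just inside the limit stood probes of Slc25a24 and Slc26a5, each detected on 2 arrays, with a second lowest detection p of 0.00877 and log2 intensities of 5.09 to 6.03 and 4.53 to 5.75. Just outside stood Slc2a10 and Slc8a1, each detected on 1 array, with a second lowest detection p of 0.01 and log2 intensities of 5.08 to 5.90 and 5.21 to 6.02. Of the members, 94 were detected on all 14 arrays and 18 on exactly 2.

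Solute carriers are membrane proteins that move small molecules across the plasma membrane and the membranes of organelles, either down a gradient or coupled to the movement of sodium, protons or another ion. Families are numbered by sequence kinship, so that members of a family tend to carry related substrates, among them amino acids, sugars, metal ions, nucleosides and the metabolites that mitochondria exchange with the cytosol. In stem cells they supply the amino acids, nucleosides and cofactors that growth and one-carbon metabolism use.

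Each of 14 RNA samples was measured on 1 Illumina Mouse-8 v2 array of 25697 probes. Germline stem cells (GSC), which the labels call unipotent, came as 3 OG2 lines of strain C57BL6 with an Oct4-GFP transgene, and as 3 OG2-ROSA lines of a C57BL6 and 129sv cross with Oct4-GFP and LacZ transgenes. Pluripotent stem cells derived from the germline cells (gPS) came as 3 clonal lines with the OG2 label and 3 with the OG2-ROSA label, and carry the same transgenes. Embryonic stem cells (ESC) of strain C57BL6, with no transgene named, gave 2 arrays, which the series describes as biological or technical duplicates. The titles of both, and of all OG2 samples, carry the tag biol rep2, which no OG2-ROSA title has. The titles do not explain this tag. All groups but ESC carry the Oct4-GFP transgene. Strain, LacZ transgene and the title tag change together between OG2 and OG2-ROSA and cannot be told apart. The series text counts 13 samples, whereas 14 were analysed here.

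Mean array signal was 513.4 to 639.5, except on the arrays of gPS OG2-ROSA lines 1 and 2 (379.1 and 308). Probes detected per array were 10950 to 11610 in GSC, 9638 to 10295 in gPS, and 9649 and 10121 in ESC. The lowest detected log2 signal was 5.54 to 5.73 in GSC, 5.96 to 6.22 in gPS, and 6.21 and 6.02 in ESC. The same log2 level could thus be detected in GSC and undetected in gPS or ESC. Marker lists followed the labels. The mean log2 intensity of 7 pluripotency genes was 6.69 in GSC, 10.95 in gPS and 10.95 in ESC, and that of 6 germline stem cell genes was 11.17, 5.34 and 5.41. Markers of other cells moved with the main comparison too. The mean of the 11 tested of 15 fibroblast or feeder genes was 8.86 ± 1.11 in GSC (SD, n = 6, range 6.79 to 9.91), 6.80 ± 0.65 in gPS (SD, n = 6, range 6.01 to 7.78) and 6.66 in ESC, and the GSC and gPS means differed (p = 0.00866, exact permutation test, two-sided). The 2 tested of 5 Sertoli cell genes averaged 7.90 in GSC and 5.11 in gPS, and 1 of them, Cldn11, was detected on no gPS or ESC array. The 1 tested of 3 peritubular genes, Acta2, lay the other way, at 8.72 ± 0.50 in GSC (SD, n = 6, range 8.14 to 9.53) and 10.54 ± 1.64 in gPS (SD, n = 6, range 7.76 to 12.78), with overlap. The 1 tested of 5 Leydig cell genes averaged 5.11 and 5.81 and was detected on no GSC and 2 gPS arrays. These values stand beside every gPS and GSC comparison below. Only the fibroblast list was entered in a fit, with the outcome given below, and the part of the other lists in the results was not tested. In such bulk samples, fewer cells of a type and less RNA per cell cannot be told apart.

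The first comparison set the 6 gPS arrays against the 6 GSC arrays, averaged over both backgrounds, and asked how the carriers of the cell surface, the mitochondria and the Golgi differed between the 2 states. Of the 215 members, 79 were higher in gPS and 61 lower (limma, adjusted p under 0.05), and 75 did not pass. The share higher was 36.7%, against 30.4% of all 13034 tested probes, and the share lower was 28.4%, against 33.5%. In all, 65.1% of members were called, against 63.9% of all tested probes, so that the share called was near that of the array as a whole. The median log2 change was 0.15 over the members and -0.04 over all tested probes. All 6 gPS arrays lay above all 6 GSC arrays for 50 members and below them for 37, together 40.5%, against 18%, 20.4% and together 38.5% of all tested probes. Called changes of at least 2-fold were seen for 77 members, 49 of them higher, against 32.9% of all tested probes. No GSC array detected 17 of the members and no gPS array 24, and Slc15a2, detected on ESC arrays alone, counts in both. Such members passed the detection limit only through the arrays of other groups, so that their calls are not independent of the choice. Each member named below as undetected in GSC or in gPS is among them. The matching shares of all tested probes were not counted.

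The balance of rises and falls depended on the scaling of the arrays. With arrays scaled by the medians of all 25697 probes in place of quantiles, 64 members were higher and 83 lower, and the median log2 change of all tested probes was -0.28. With medians of the tested probes alone, 95 were higher and 45 lower, and the median of all tested probes was 0.15. The higher share of the calls was thus 56.4% with quantiles, 43.5% and 67.9%. Over all tested probes it was 47.6%, 34.7% and 57.9%, lower than that of the members under each scaling. Changes of the members are therefore read below relative to the array.

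The largest rises were those of carriers of zinc, amino acids and anions. Genes named here and below for the largest changes were chosen among those whose gPS arrays all lay on 1 side of all GSC arrays. Their separation thus comes from the choice. Slc39a4, a zinc importer of the plasma membrane, lay between 4.90 and 6.64 on the GSC arrays (median 5.21) and between 9.68 and 10.45 on the gPS arrays (median 10.19). The groups did not overlap, and the ESC arrays, at 9.88 and 9.83, lay within the gPS range. Its log2 change was 4.72 (SE 0.23, n = 6 arrays each, limma adjusted p = 1.69e-09), although only 1 GSC array detected it. A second Slc39a4 probe, detected on no GSC array and thus a member only through other arrays, was at least 1.89-fold higher (adjusted p = 1.74e-07). Such lower bounds set the mean of the group that detected the probe against the other group's mean of, per array, the higher of the lowest detected signal and the probe's own value.

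Slc7a7, the light chain of an exchanger of cationic and neutral amino acids, lay at 5.46 to 6.34 in GSC (median 5.61) and at 8.94 to 10.56 in gPS (median 9.92). Every gPS array stood above every GSC array, and the ESC arrays stood at 9.0 and 9.05. The change was 3.98 (SE 0.26, limma adjusted p = 3.05e-08), and 3.49 (SE 0.29) for a second probe. Slc1a3, a sodium-coupled glutamate and aspartate transporter, lay at 5.01 to 6.12 in GSC (median 5.22), where 1 array detected it, and at 7.87 to 9.47 in gPS (median 9.22). It rose by a log2 of 3.63 (SE 0.23, limma adjusted p = 2.02e-08) and stood at 8.63 and 8.39 in ESC. The groups were again apart, and the lowest gPS value was that of OG2 line 1.

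Slc4a3, a chloride and bicarbonate exchanger, was measured by 3 probes, all detected on every GSC and gPS array. The probe with the largest change lay at 5.90, 6.69 and 6.07 in GSC OG2 and at 6.28, 6.31 and 6.08 in GSC OG2-ROSA. It lay at 10.80, 10.43 and 10.56 in gPS OG2 and at 8.49, 9.43 and 10.23 in gPS OG2-ROSA. All gPS arrays were above all GSC arrays, and within gPS the OG2-ROSA lines were the lower. The rise was 3.77 (SE 0.24, limma adjusted p = 2.61e-08), and the other probes rose by 3.75 and 2.71. The ESC arrays, at 5.77 and 5.80, were at the GSC level and did not detect it, a point taken up with the ESC comparison below.

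Of the sequences before transcription starts, those of 4 members with a large change are shown, to let CpG content be compared among genes that rose and a gene that fell. They are 250 bases upstream of a start listed by RefSeq on GRCm38.p6, at chr1:75546212-75546461 on the plus strand for Slc4a3, chr9:120110132-120110381 on the plus strand for Slc25a38, chr15:8710808-8711057 on the minus strand for Slc1a3 and chr13:112660516-112660765 on the plus strand for Slc38a9. CpG dinucleotides are in capitals.
Slc4a3: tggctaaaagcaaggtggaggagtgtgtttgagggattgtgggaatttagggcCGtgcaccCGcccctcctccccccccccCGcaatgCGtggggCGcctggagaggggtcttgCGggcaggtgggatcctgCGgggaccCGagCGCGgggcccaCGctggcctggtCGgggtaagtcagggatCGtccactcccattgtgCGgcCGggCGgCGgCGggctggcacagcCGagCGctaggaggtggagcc
Slc25a38: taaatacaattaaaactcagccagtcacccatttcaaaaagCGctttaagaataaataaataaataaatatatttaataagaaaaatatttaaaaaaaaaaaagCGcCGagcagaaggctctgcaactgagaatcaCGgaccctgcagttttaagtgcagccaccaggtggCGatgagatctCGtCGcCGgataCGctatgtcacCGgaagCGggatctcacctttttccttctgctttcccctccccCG
Slc1a3: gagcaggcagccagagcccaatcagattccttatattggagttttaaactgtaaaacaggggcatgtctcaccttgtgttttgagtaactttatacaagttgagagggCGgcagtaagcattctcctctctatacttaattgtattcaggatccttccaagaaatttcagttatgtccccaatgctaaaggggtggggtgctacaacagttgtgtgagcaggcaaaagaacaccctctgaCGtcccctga
Slc38a9: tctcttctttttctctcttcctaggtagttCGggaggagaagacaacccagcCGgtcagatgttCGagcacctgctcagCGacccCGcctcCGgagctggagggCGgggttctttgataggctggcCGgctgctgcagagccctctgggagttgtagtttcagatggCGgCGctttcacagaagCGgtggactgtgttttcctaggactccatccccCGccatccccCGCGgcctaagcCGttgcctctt

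The Slc4a3 window held 20 CpG and that of Slc1a3 held 2, although both genes rose. The windows of Slc25a38, which rose, and Slc38a9, which fell, held 12 and 15. Over genes with 1 listed start, the median was 16 CpG for 38 member genes that rose, 13.5 for 24 that fell and 15 for 37 not called, against 16 for 5783 tested genes. No test was attached to these medians. A window of Slc7a7 is shown for its match to the core of the amino acid response element (TGATGCAA, in capitals, searched on both strands), which begins 243 bases upstream of the start. It is 1 of 5 RefSeq windows listed for that gene, at chr14:54417703-54417952 on the minus strand.
Slc7a7: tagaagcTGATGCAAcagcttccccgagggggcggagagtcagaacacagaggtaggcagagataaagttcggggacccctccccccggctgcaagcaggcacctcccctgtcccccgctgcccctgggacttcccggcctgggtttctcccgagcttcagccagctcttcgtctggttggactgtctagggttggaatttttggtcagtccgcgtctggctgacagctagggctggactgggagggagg

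Of 179 windows listed for 131 member genes, 2 (1.12%) held this motif, against 0.791% of all 32851 windows, and the other gene with it was Slc50a1, which did not pass the test. The E-box CACGTG was held by 20 member windows (11.2%), among them windows of Slc25a13, Slc25a15, Slc25a36 and Slc29a1, which rose, and of Slc12a7, Slc12a9 and Slc25a14, which fell, against 6.02% of all windows. The core of the metal response element, TGCGCNC, was held by 29 (16.2%) against 12.5%, and the octamer ATGCAAAT, which shares the letters ATGCAA with the first motif, by 1 (0.559%) against 1.60%. These are matches of letters in a window, with no test, and say nothing of binding.

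**Figure D1:**
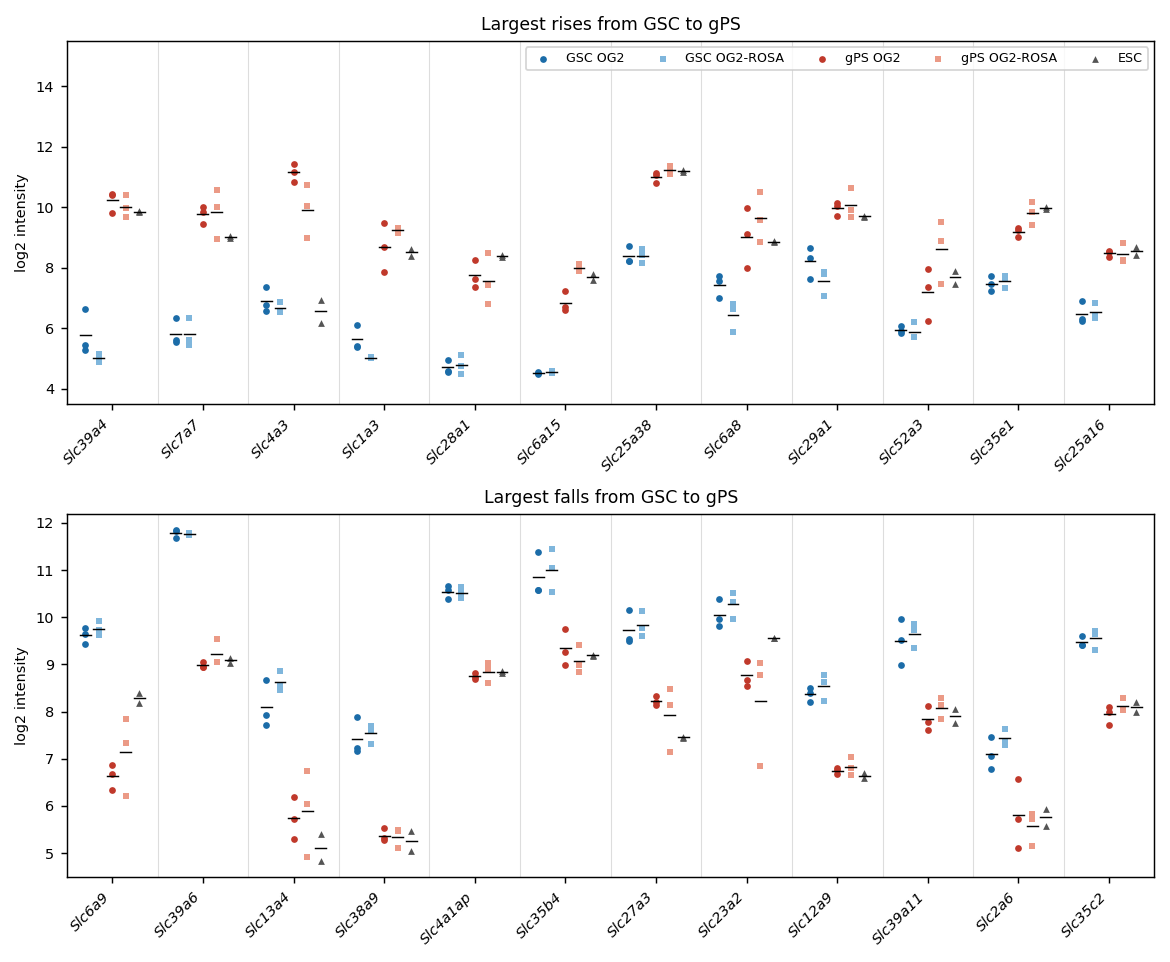
Log2 intensity of the 12 solute carrier genes with the largest rise (upper panel) and the 12 with the largest fall (lower panel), 1 column per gene, each point 1 array coloured by group. The genes were chosen among those whose 6 gPS arrays all lay on 1 side of all 6 GSC arrays, so that this separation comes from the choice. The ESC arrays of Slc4a3 lie with its GSC arrays.

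The counts by role below stand against 30.4% higher and 33.5% lower over all tested probes. They count probes, some of the same gene, and no role was tested as a set. Among the amino acid carriers, 8 of 28 probes rose and 8 fell, both near these shares, and 12 did not pass. Their median change was -0.19, and 0.14 with medians of the tested probes. Besides Slc7a7 and Slc1a3, those that rose included the neutral amino acid exchanger Slc1a4 (1.22, SE 0.19) and Slc38a7 (1.02, SE 0.26), which moves glutamine and other amino acids. Slc1a5, an importer of glutamine and other neutral amino acids, passed the test (adjusted p = 7.14e-05) but was undetected in GSC and detected on 2 gPS arrays, too dim for a fold. Slc38a2, a sodium-coupled importer of small neutral amino acids, had 1 probe that rose (0.81, adjusted p = 0.0271) and 1 that did not pass (0.14). On the other side stood Slc38a9, a lysosomal amino acid sensor of the mTORC1 pathway. It lay at 7.17 to 7.88 in GSC (median 7.47), was detected on no gPS or ESC array and was at least 2.62-fold lower in gPS (limma adjusted p = 1.07e-07). Slc38a9 became a member only through GSC arrays, so its call is not independent of that choice. Its groups did not overlap, and a second probe, detected on 3 GSC arrays and no gPS array, passed the test in the same direction with overlapping arrays.

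The lysosomal peptide and histidine carrier Slc15a4 fell by a log2 of 1.10 and 1.04 at its 2 probes. The large neutral amino acid exchanger Slc7a5 had a change of -0.56 (SE 0.16, adjusted p = 0.00734), and the arginine and lysine importer Slc7a2, detected on 2 gPS arrays, of -0.52 (SE 0.17). The Slc7a5 call was lost with either median scaling, and its value was 0.05 with medians of the tested probes. Slc3a2, the heavy chain that Slc7a5, Slc7a6, Slc7a7 and Slc7a8 pair with, had a change of 0.08 that did not pass (95% interval -1.01 to 1.16). Its gPS arrays lay at 9.63, 9.65 and 9.0 in OG2 and at 9.62, 5.92 and 9.71 in OG2-ROSA. Without the low one, OG2-ROSA line 2, Slc3a2 rose by 0.70 (adjusted p = 0.000764). Slc7a6 (-0.33) and Slc7a8 (-0.30) did not pass.

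Of the carriers of the Slc6 family, which couple uptake to sodium and chloride, 3 of 5 probes rose and 1 fell. Slc6a15, a neutral amino acid transporter known mainly from neurons, was undetected in GSC and detected on all gPS and ESC arrays, and was at least 3.47-fold higher (limma adjusted p = 1.07e-09). Slc6a15 became a member only through gPS and ESC arrays, so its call is not independent of that choice. Slc6a8, the creatine transporter, lay at 5.87 to 7.72 in GSC (median 6.90) and at 8.0 to 10.5 in gPS (median 9.35), a rise of 2.41 (SE 0.34). The taurine transporter Slc6a6 rose by 0.74 (SE 0.16). For all of these the gPS arrays lay above the GSC arrays without overlap, which the choice of the largest changes required of Slc6a15 and Slc6a8. Slc6a9, the glycine transporter GlyT1, moved the other way, from 9.43 to 9.93 in GSC (median 9.68) to 6.22 to 7.85 in gPS (median 6.77), and fell by a log2 of 2.81 (SE 0.23, limma adjusted p = 2.1e-07). The ESC arrays, at 8.39 and 8.18, lay between both groups.

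Mitochondrial carriers of the Slc25 family exchange metabolites, nucleotides and cofactors across the inner mitochondrial membrane. Of 37 probes (26 genes), 19 rose, 4 fell and 14 did not pass, with a median change of 0.50. The counts were 17 and 10 with medians of all probes and 22 and 3 with medians of the tested probes. Slc25a38, a glycine carrier needed for heme synthesis, rose at all 3 of its probes, by 2.68 to 2.78. The probe with the change of 2.73 lay at 8.16 to 8.72 in GSC (median 8.31) and at 10.80 to 11.35 in gPS (median 11.12), with no overlap (SE 0.14, limma adjusted p = 3.02e-09). The mitochondrial carrier of glycine rose, whereas Slc6a9, the glycine transporter of the plasma membrane, fell.

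Slc25a5, an exchanger of ADP and ATP, lay at 11.65 to 12.24 in GSC (median 12.08) and at 13.63 to 14.24 in gPS (median 13.85), a rise of 1.84 (SE 0.14, limma adjusted p = 1.27e-07). Slc25a16, a carrier linked to coenzyme A, rose by 1.95 (SE 0.17), and Slc25a12, an exchanger of aspartate and glutamate in the malate shuttle, by 1.89 (SE 0.16), with 2 GSC arrays detecting it. Slc25a13, the other exchanger of that shuttle, rose by 2.05 (SE 0.45), but its groups overlapped: OG2-ROSA line 2 lay at 5.54, against 8.18 to 9.39 on the other gPS arrays. The ornithine carrier Slc25a15 rose at both probes (1.28 and 0.93), the oxoglutarate and malate carrier Slc25a11 at 3 probes (0.73 to 0.97) and the citrate carrier Slc25a1 at both (0.84 and 0.63). The phosphate carrier Slc25a3 rose by 2.48 at 1 probe and gave 0.29 at another, which did not pass. Of those that fell, Slc25a14, an uncoupling protein relative, changed most (-1.40, SE 0.23).

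Metal ion carriers had 6 of 30 probes higher, 11 lower and 13 not called, with a median of -0.29. With medians of the tested probes, 7 were higher and 7 lower. The zinc importers held both the largest rise among the members, that of Slc39a4, and the fall of Slc39a6. Slc39a6 lay at 11.68 to 11.84 in GSC (median 11.79) and at 8.94 to 9.54 in gPS (median 9.05), with ESC at 9.14 and 9.03. The groups did not overlap, which the choice of the largest changes required, and the change was -2.68 (SE 0.12, limma adjusted p = 1.01e-09). Slc39a11 (-1.61), Slc30a7 (-1.29 and -0.92), a zinc carrier of the Golgi, and Slc39a13 (-1.23, and -0.54 at a probe detected on 1 gPS array) fell too. The copper importer Slc31a1 rose by 0.72 (SE 0.17) and the zinc importer Slc39a10 by 0.90 (SE 0.24). Of the 2 probes of Slc39a14, 1 passed the test upwards (adjusted p = 0.000821), but it was detected on 1 GSC and 4 gPS arrays, too dim for a fold. The iron importer Slc11a2 had a change of -0.66 (SE 0.22, adjusted p = 0.0198), with 1 gPS array detecting it. Without GSC OG2-ROSA line 1 or gPS OG2-ROSA line 1 its adjusted p was 0.0512 or 0.0504. The iron exporter Slc40a1 (-0.46) and the zinc exporter Slc30a1 (0.22) did not pass.

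Carriers of the Slc35 family bring nucleotide sugars into the Golgi and the endoplasmic reticulum, where glycans are built. Of 24 probes, 7 rose, 10 fell and 7 did not pass (8 and 8 with medians of the tested probes). By gene, 6 of 17 rose and 6 fell at 1 or more probes. The CMP-sialic acid carrier Slc35a1 rose by 1.61 and 1.27, the N-acetylglucosamine nucleotide carrier Slc35a3 by 1.21 (SE 0.16) and Slc35e1 by 1.97 (SE 0.16). Only 1 GSC array detected Slc35a3 and the first Slc35a1 probe. Slc35b4, which carries UDP-xylose and UDP-N-acetylglucosamine, had a change of -1.72 (SE 0.21), and Slc35b3, a carrier of the sulphate donor PAPS, of -1.08 to -0.82 at 3 probes, the last detected on 1 gPS array. Slc35c2, linked to fucosylation of Notch, fell at all 3 of its probes, from -1.49 to -0.86. Slc35f3 was detected on no gPS array and was at least 1.87-fold lower (adjusted p = 5.58e-05), though its groups overlapped.

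Nucleoside carriers did not include a probe that fell. Slc28a1, a sodium-coupled concentrative transporter of pyrimidine nucleosides, was detected on no GSC array, lay at 6.81 to 8.48 in gPS (median 7.54) and at 8.36 and 8.41 in ESC, and was at least 4.13-fold higher in gPS (limma adjusted p = 3.65e-07). Its call is not independent of the choice of members by detection. Slc29a1, an equilibrative nucleoside transporter, lay at 7.08 to 8.66 in GSC (median 7.83) and at 9.68 to 10.63 in gPS (median 9.98), a rise of 2.12 (SE 0.22), and Slc29a4 rose by 1.05 (SE 0.24). None of these groups overlapped. Slc29a2 (-0.06) and Slc29a3 (-0.25) did not pass. The median of the 5 probes was 1.05, and 0.64 with medians of all probes, under which 1 fell.

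Monocarboxylate carriers move lactate, pyruvate and related acids, and 5 of 6 probes rose, from 3 of 4 genes. Slc16a6 rose at 3 probes (1.33 to 1.91), 2 of them detected on 1 GSC array each, and Slc16a3, the lactate exporter MCT4, and Slc16a13 were undetected in GSC, with levels at least 1.03-fold and 1.09-fold higher in gPS. Of the phosphate, sulphate and vesicular carriers, 6 of 12 probes rose and 3 fell. The sodium and phosphate importers Slc20a1 and Slc20a2 rose by 1.75 (SE 0.33) and 1.77 (SE 0.17), and Slc17a9, which loads ATP into vesicles, was at least 2.37-fold higher. Slc13a4, a sodium-coupled sulphate importer, lay at 7.71 to 8.87 in GSC (median 8.50) and at 4.91 to 6.75 in gPS (median 5.89), with no overlap (limma adjusted p = 4.59e-06). Its change of -2.54 (SE 0.29) is not fully measured, since 2 gPS arrays and 0 ESC arrays detected it. The lysosomal sialic acid exporter Slc17a5 was detected on no gPS array and was at least 1.14-fold lower.

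Cation and chloride carriers had 7 of 12 probes lower and 3 higher (6 and 5 with medians of the tested probes) and a median of -0.82. By gene the split was nearly even, with 4 of 8 genes lower and 3 higher at 1 or more probes. Slc12a9 fell by a log2 of 1.67 (SE 0.13) at the probe detected on all arrays. Its other 2 probes, detected on no gPS array, passed the test in the same direction, 1 of them at least 1.24-fold lower and the other too dim for a fold. The potassium and chloride exporter Slc12a7 had a change of -1.28 (SE 0.20), and the sodium, potassium and chloride importer Slc12a2 fell at 2 of 3 probes (-0.95 and -0.87, the third at 0.21 not called). Slc12a8 rose by 1.61 (SE 0.34) and the sodium and chloride importer Slc12a3 by 1.03 (SE 0.15). Of the proton, bicarbonate and anion exchangers, 3 of 13 probes rose, all of Slc4a3, and 3 fell, among them the anion exchanger Slc4a2 (-0.86, SE 0.20). Their median of -0.01 was -0.34 with medians of all probes (4 rose and 5 fell) and 0.09 with medians of the tested probes (5 and 2).

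Carriers of vitamins, choline, lipids and bile acids split into 10 rises and 6 falls of 23 probes. Their median of 0.19 turned to -0.10 with medians of all probes. The riboflavin carrier Slc52a3 rose by 1.99 (SE 0.33), the thiamine carrier Slc19a2 by 1.00 (SE 0.18) and the fatty acid carrier Slc27a2 by 1.03 (SE 0.27), which with medians of all probes was 0.64 and did not pass (adjusted p = 0.0633). Slc46a3 and the bile acid and steroid carrier subunit Slc51a, detected on no GSC array, were at least 2.57-fold and 1.98-fold higher. The ascorbate importer Slc23a2 had a change of -1.67 (SE 0.31) and the fatty acid carrier Slc27a3 of -1.71 (SE 0.21), both with no overlap. The folate carrier Slc19a1 did not pass (0.19). Of 7 sugar carrier probes, 2 rose and 2 fell: Slc2a8, a glucose carrier of internal membranes, rose by 0.68 (SE 0.23), the myo-inositol carrier Slc5a11 was at least 1.5-fold higher, and Slc2a6, also a glucose carrier of internal membranes, had a change of -1.58 (SE 0.23), with 1 gPS array detecting it. With medians of all probes 1 sugar carrier probe rose and 4 fell.

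Organic ion carriers had 4 of 7 probes lower and 1 higher. Slc22a17, a receptor for lipocalin, was detected on no gPS array and was at least 1.37-fold lower, the carnitine carrier Slc22a5 fell at 2 of 3 probes (-0.97, where 1 gPS array detected it, and -0.91), and Slc22a7 rose by 0.85 (SE 0.15). The symbol rule also took in 4 probes of genes that are no carriers but are named after one. Slc4a1ap, an adaptor protein, fell by a log2 of 1.73 (SE 0.12), and Slc7a6os, Slc9a3r1 and Slc9a3r2 rose by 0.59, 0.87 and 0.58, none of which passed with medians of all probes. The 6 X-linked members went both ways. Slc25a5 and Slc6a8 rose, Slc25a14 and Slc10a3 fell, and Slc35a2 and Slc38a5 did not pass, where 35.3% of all tested X-linked probes were higher and 35% lower. Of 36 genes with several member probes, the probes of 24 shared 1 verdict, 12 had some probes called and others not, and 0 had probes called in opposite directions.

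**Figure D2:**
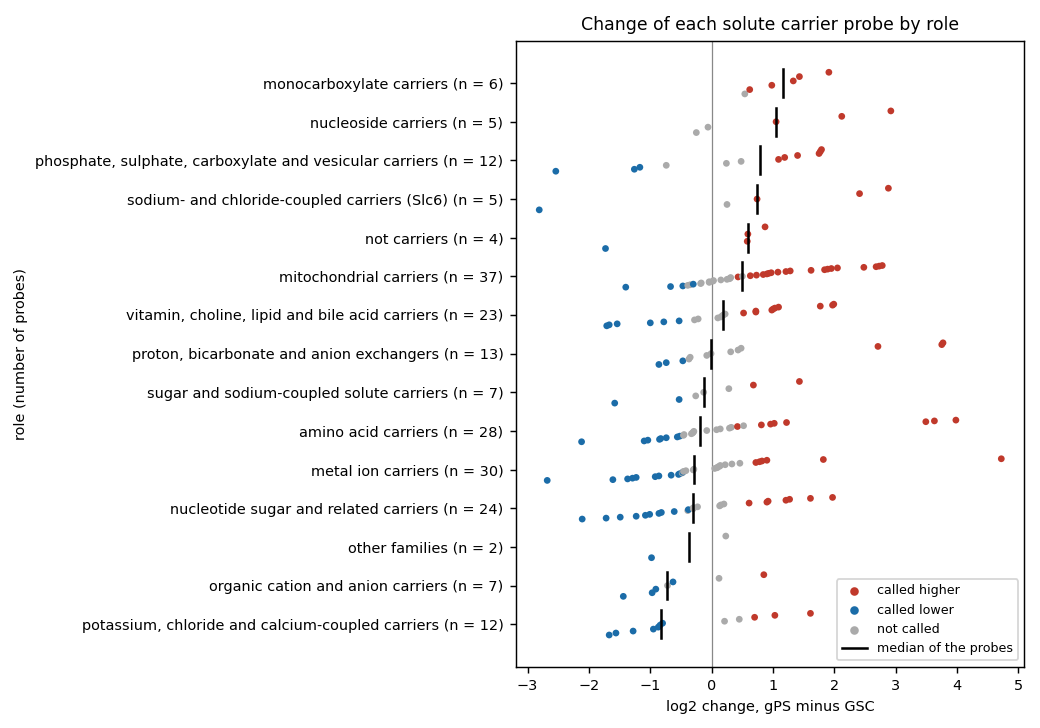
Log2 change of each of the 215 probes, gPS minus GSC, by role of the carrier, each point 1 probe coloured by its limma call and each black line the median of the role. Mitochondrial, monocarboxylate and nucleoside carriers have medians above 0 (0.50, 1.16 and 1.05), cation and chloride carriers a median of -0.82, and amino acid and metal carriers spread widely on both sides.

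Some calls were lost when the mean of the fibroblast list entered the model as a covariate, under which 89 members were called (48 higher, 41 lower). Over all tested probes 36.1% were called with the covariate, against 63.9% without it. Of the 140 calls, 88 were kept and 52 lost, and 1 was gained. Of the lost ones, 15 had a change at least as large as before, 35 a smaller one in the same direction and 2 one of the other sign. The median size of their change was 0.74 without and 0.64 with the covariate, and the median SE 0.20 and 0.36.

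Slc25a13 (1.97, adjusted p = 0.0842), Slc16a6 (1.47, 0.109 at 1 probe), Slc11a2 (-0.64, 0.247), Slc7a2 (-0.64, 0.136) and Slc7a6os (0.71, 0.112) thus lost the call with a change near or above that of the fit without the covariate. Changes were smaller for Slc20a1 (1.20, adjusted p = 0.125), Slc25a14 (-0.84, 0.0963), Slc29a4 (0.58, 0.284), Slc27a2 (0.51, 0.413), Slc7a5 (-0.32, 0.402), Slc16a3 (0.27, 0.645) and Slc31a1 (0.19, 0.595), and that of Slc2a8 was -0.12 (0.788). Other members named above that lost a call at 1 or more probes were Slc4a2, Slc6a6, Slc9a3r1, Slc9a3r2, Slc15a4, Slc19a2, Slc25a1, Slc25a11, Slc26a5, Slc35c2, Slc38a2, Slc39a10, Slc39a13, Slc39a14 and Slc51a. With medians of all probes 20 calls were lost, among them those of Slc38a7 (0.62, adjusted p = 0.0683), Slc31a1 (0.30, 0.155), Slc39a10 (0.51, 0.0959) and the Slc38a2 probe (0.56, 0.159), and with medians of the tested probes 16, among them Slc11a2 (-0.46, 0.0817). Slc16a3 (adjusted p = 0.0574) and Slc2a8 (0.127) were also not called without both dim gPS OG2-ROSA arrays.

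Each background was then compared on its own, with 3 arrays on each side. In OG2, 68 members were higher in gPS and 48 lower, together 54% against 49.4% of all tested probes. In OG2-ROSA, 67 were higher and 45 lower, together 52.1% against 50.1%. The split moved with the scaling here too: the higher share of the calls was 58.6% in OG2 and 59.8% in OG2-ROSA, 47.5% and 42.1% with medians of all probes, and 65.6% and 68.6% with medians of the tested probes. Over all tested probes these shares were 47% and 47.6%, 37.5% and 29.5%, and 57.7% and 59.4%. The 2 comparisons share no arrays, although 1 normalization and 1 estimate of each probe's spread serve both. They called 93 members the same way (43.3%, against 39.7% of all tested probes), 56 higher and 37 lower, which is 80.2% of the OG2 calls and 83% of the OG2-ROSA calls, and 0 in opposite directions.

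Tested for a different change in each background, 0 members passed in limma, against 0.00767% of all tested probes (19 members and 653 probes at an unadjusted p under 0.05). Slc25a12 had the smallest p among the members, with a rise larger in OG2-ROSA by 1.39 (SE 0.32, adjusted p = 0.539), followed by Slc6a15 (1.11, SE 0.26, adjusted p = 0.558) and Slc39a13 (1.23, SE 0.33, adjusted p = 0.706). With 3 arrays a group, a difference that did not pass does not show that the backgrounds acted alike.

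**Figure D3:**
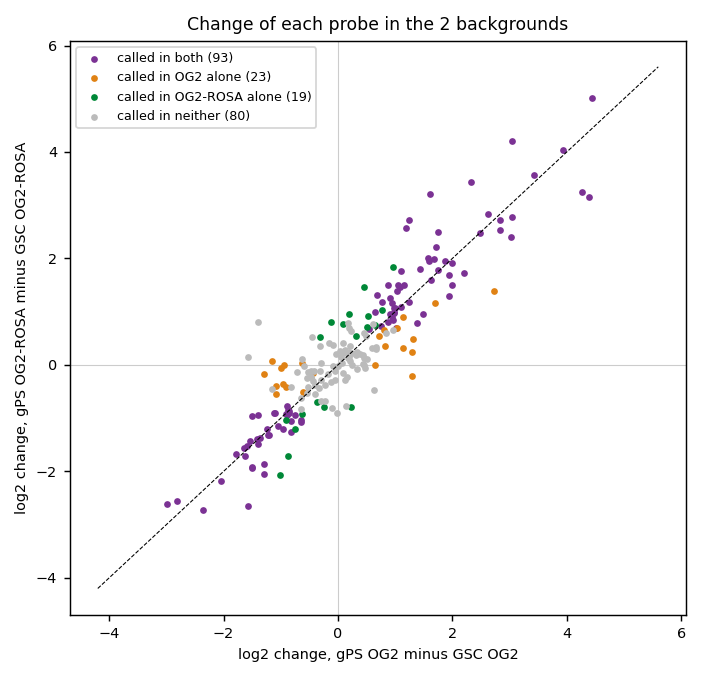
Log2 change of each of the 215 probes from GSC to gPS in OG2 (horizontal axis) and in OG2-ROSA (vertical axis), coloured by where limma called it. The 93 probes called in both lie at the upper right and the lower left, with 0 called in opposite directions.

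Between the GSC lines of both backgrounds, 0 members were called in limma, against 0.00767% of all tested probes (6 members and 510 probes at an unadjusted p under 0.05). Between the gPS lines, 2 members were higher in OG2-ROSA and 0 lower (0.93%, against 0.222% of all tested probes, 0.176% higher and 0.046% lower). Slc6a15 lay at 6.61, 6.69 and 7.23 in gPS OG2 and at 8.13, 7.93 and 7.88 in gPS OG2-ROSA, with no overlap, a difference of 1.14 (SE 0.19, limma adjusted p = 0.0338). The ESC arrays, of the C57BL6 strain, lay at 7.81 and 7.59, between them. Slc25a32, which brings folate or flavin cofactors into mitochondria, was detected on no gPS OG2 array (5.42, 5.10 and 5.16), lay at 6.74, 6.44 and 6.66 in gPS OG2-ROSA and was at least 1.48-fold higher there (adjusted p = 0.0388). Its GSC arrays lay at 5.31 to 6.35, and its main change of 0.03 did not pass.

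Both calls were at the edge of the test. Slc6a15 was called under 12 and Slc25a32 under 4 of 27 alternatives, with adjusted p of 0.0199 to 0.741 and 0.0135 to 0.515. Leaving out single arrays kept Slc6a15 in 5 of 14 cases and Slc25a32 in 3 of 14. Without gPS OG2-ROSA line 3, 10 members were called, and 1.66% of all tested probes, against 0.222% with it.

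The ESC arrays served as the reference for a pluripotent state not derived from the germline. Of the 140 members called between gPS and GSC, the ESC mean lay nearer to the gPS mean for 122 (87.1%, against 89.9% of all called probes) and nearer to the GSC mean for 18. Among these 18 were the 3 probes of Slc4a3, and Slc5a11, Slc23a2, Slc27a2, Slc29a4 and Slc16a3. Against ESC, 4 members differed in gPS OG2 (1.86%, against 0.836% of all tested probes) and 4 in gPS OG2-ROSA (1.86%, against 0.261%). In each case 3 probes of 1 gene were higher, which the share counts 3 times, and 1 probe was lower. Over all tested probes 0.322% were higher and 0.514% lower in the first, and 0.115% and 0.146% in the second. Both comparisons use the same 2 ESC arrays. If these are technical duplicates, the p-values are too small.

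The members higher than in ESC were the 3 probes of Slc4a3 in both comparisons. For the probe with the largest difference, detected on neither ESC array, the level was at least 22.3-fold higher in gPS OG2 (limma adjusted p = 3.27e-05) and at least 9.61-fold higher in gPS OG2-ROSA (adjusted p = 0.00144). The second probe lay at 11.43, 10.85 and 11.18 in gPS OG2 and at 8.97, 10.03 and 10.73 in gPS OG2-ROSA, against 6.18 and 6.94 in ESC. No gPS array overlapped with ESC, and the differences were 4.59 (adjusted p = 0.000117) and 3.35 (adjusted p = 0.00457). The third probe lay at 9.58, 9.0 and 9.37, at 7.69, 8.53 and 8.75, and at 6.03 and 6.15, with differences of 3.23 and 2.23. On GSC arrays the second probe lay at 6.55 to 7.35 and the third at 5.76 to 6.41, so that the gPS lines stood above both other cell types at each of the 3 probes.

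In gPS OG2 the 3 Slc4a3 probes kept their calls under all 26 alternatives, with adjusted p of at most 0.00713. In gPS OG2-ROSA they kept it under 24, 23 and 22 of 26. The calls of all 3 were lost without ESC array 1 (4 members fell to 0) and with only the groups compared. The level was lower in gPS OG2-ROSA than in gPS OG2 by 1.22, 1.24 and 1.00 on the log2 scale, which did not pass (adjusted p = 0.221, 0.256 and 0.178).

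The member lower than in ESC was Slc15a2 in both comparisons, a proton-coupled importer of small peptides. It was detected on both ESC arrays (6.73 and 6.23) but undetected in GSC and gPS, where it lay at 4.75 to 5.50 in gPS OG2 and at 4.47 to 4.63 in gPS OG2-ROSA. It was at least 1.35-fold lower in gPS OG2 (limma adjusted p = 0.0152) and at least 1.27-fold lower in gPS OG2-ROSA (adjusted p = 0.00293). It became a member only through the ESC arrays, so it had to differ. Its calls were kept under 19 and 21 of 26 alternatives, and were lost without ESC array 1 (both), and without ESC array 2 or gPS OG2 line 3 (in gPS OG2). For Slc6a9, whose ESC arrays lay between GSC and gPS, the differences from ESC were -1.66 in gPS OG2 (adjusted p = 0.0538) and -1.15 in gPS OG2-ROSA (adjusted p = 0.349), neither of which passed.

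**Figure D4:**
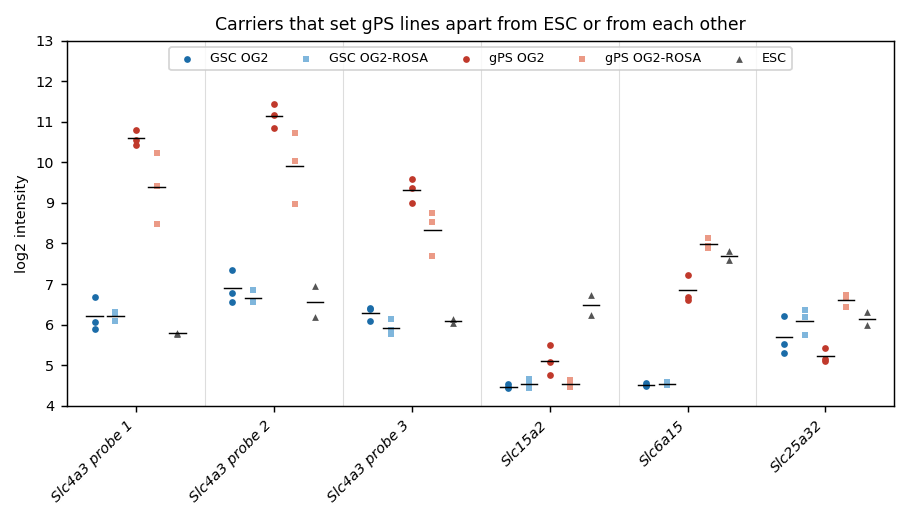
Log2 intensity on each of the 14 arrays of the members called against ESC or between the gPS backgrounds: 3 probes of Slc4a3, and Slc15a2, Slc6a15 and Slc25a32, each point 1 array by group. The Slc4a3 probes are high in gPS and low in both GSC and ESC, whereas Slc15a2 is detected on the ESC arrays alone.

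The lines varied unequally. The median within-group SD of the members was 0.33 on the log2 scale, and 0.28 for the 94 detected on all arrays. Of these 94, 74 (78.7%, against 73.1% of all tested probes detected on all arrays) had a wider range over the 6 gPS than over the 6 GSC arrays, with median ranges of 0.90 and 0.58. The dimmest array, gPS OG2-ROSA line 2, gave the lowest of the 6 gPS values for 30 of the 94 (31.9%, against 21.3%) and the highest for 22 (23.4%, against 31.5%). The other dim array, gPS OG2-ROSA line 1, gave the lowest for 9 (9.57%, against 20%) and the highest for 23 (24.5%, against 18.1%).

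The widest spread among members detected on all arrays was that of Slc40a1, at 8.33 to 9.82 in GSC and at 9.24, 8.23, 10.52, 6.49, 7.98 and 9.86 on the gPS arrays from OG2 line 1 to OG2-ROSA line 3. Next came Slc38a4, an imprinted amino acid importer, at 8.71 to 9.43 in GSC and at 9.93, 7.94, 9.57, 9.40, 6.38 and 8.61 in gPS. Both genes thus had gPS arrays above and below all GSC arrays. OG2-ROSA line 2 stood alone at the low end for Slc38a4, for Slc20a1 (7.28 against 8.80 to 9.56 on the other gPS arrays) and for Slc23a2 (6.85 against 8.55 to 9.07), as for Slc3a2 and Slc25a13 above. Whether its dim signal has a part in this was not tested.

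**Figure D5:**
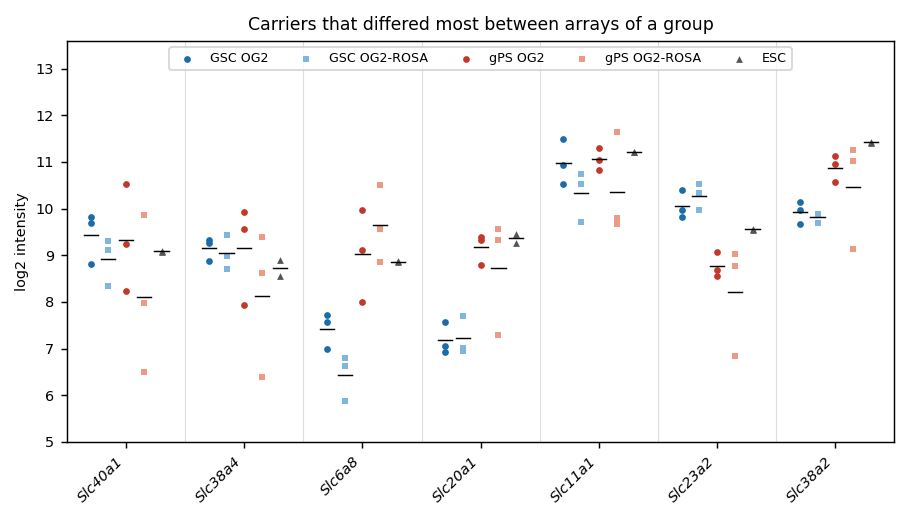
Log2 intensity on each array of the 7 members with the largest within-group spread among those detected on all arrays, each point 1 array by group. The gPS arrays of Slc40a1 span 6.49 to 10.52 and those of Slc38a4 span 6.38 to 9.93, and gPS OG2-ROSA line 2 is the low point for Slc38a4, Slc20a1 and Slc23a2.

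Genes that act beside the carriers were taken from lists, whose counts stand against 30.4% higher and 33.5% lower over all tested probes. Of 22 tested genes of the ATF4 response, by which cells raise amino acid uptake and synthesis when amino acids are short, 14 rose and 2 fell, with a median of 1.06 (0.75 with medians of all probes, also 14 and 2). The asparagine synthetase gene Asns rose by 1.56, the asparaginyl-tRNA synthetase gene Nars by 2.32, Chac1, an enzyme that degrades glutathione, by 2.70 and Atf4 itself by 1.64, while Ddit4 fell by 1.83 on the log2 scale. The values of Chac1, Atf4 and Ddit4 overlapped between GSC and gPS. Of 27 genes of amino acid sensing by mTORC1, the pathway that Slc38a9 serves, 7 rose and 12 fell, with a median of -0.19 (8 and 10 with medians of the tested probes). The Rag GTPase gene Rragb rose by 2.42 and the arginine sensor gene Castor1 by 2.64, while Rragd had a change of -3.64, Castor2 of -1.76 and Mtor of -1.20. Of 6 tested accessory subunits 3 rose and 1 fell (2 and 1 with medians of all probes, 5 and 0 with medians of the tested probes). Emb, a chaperone of monocarboxylate carriers, rose most, by 3.24. The other rises were those of Slc9a3r1, itself one of the members, and Pdzk1, detected on 0 GSC and 2 gPS arrays.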

How the data were processed

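Per the labels, RNA of 14 mouse samples was labelled with biotin as cRNA and hybridised to Illumina Mouse-8 v2 arrays, 1 array per sample. Per the file headers, the authors deposited an intensity for each probe, linear and, to judge by its values, with no background removed. They deposited a detection p-value next to each intensity. BeadStudio 3.2, lumi and RMA are listed in the submitters' processing notes, with no role or order. The authors' processed values are on a log2 scale with the same quantiles on each array (median 4.23). How they corrected background is not stated in the sources used here. These values entered an alternative only.

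R 4.3.3 and limma 3.58.1 were used. Function neqc took the background from the detection p-values (normexp, offset 16), then quantile normalized the arrays and took log2. Probes detected (p under 0.01) on 2 or more arrays, 13034 of 25697, were tested by lmFit and eBayes on 5 group means over 14 arrays, with Benjamini-Hochberg adjustment over the tested probes and 0.05 as the limit of the adjusted p for a call. Every adjusted p printed is limma's. Log2 changes of undetected probes depend on the background level. Members, roles, lists and the naming rule were chosen with earlier results of these data known. The platform annotation gave 23978 probes 1 gene symbol and 1719 none, and all 215 member probes matched the RefSeq table of GRCm38.p6 by Entrez identifier, with 0 symbols changed.

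Named members were the 12 largest changes per direction among called genes that every array of the higher side detected, with groups that did not overlap and changes alike in direction in both backgrounds; up to 4 per direction for the other comparisons; 31 genes fixed by name; and up to 3 called genes per role, each at its brightest probe. Of the 31, 23 were members, 6 had no detected probe (Slc7a11, Slc7a1, Slc38a1, Slc25a31, Slc16a1 and Slc22a18) and 2 were not analysed here. Second probes, and the further members described by role or spread, were named after their values were seen. The fit was tested on simulated data. Alternatives covered background correction, scaling, probe filter, samples, array weights, a fibroblast covariate, the line number as a block and leaving out arrays. Where nothing says that arrays are separate cultures, p-values measure only the spread between these arrays, and their number limits the precision.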

Additional observations from a re-analysis of the deposited data

How the results depend on the processing

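The number of members called between gPS and GSC was 132 to 148 when single arrays were left out, 97 to 125 in OG2 alone and 93 to 117 in OG2-ROSA alone, against 140, 116 and 112. With the mean of the fibroblast list as a covariate the counts were 89 overall and 48 in OG2. Of all tested probes, 36.1% and 20.6% were then called, against 63.9% and 49.4% in the main fit. The counts of the other alternatives stayed within 1.5 times, but the balance of rises and falls moved with the scaling: 64 higher and 83 lower with medians of all probes, and 95 and 45 with medians of the tested probes, an alternative chosen after seeing the data.

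Small counts moved more, as did the shares of all tested probes. Array weights called 12.5% of all tested probes between gPS OG2 and ESC, against 0.836% in the main fit. Without gPS OG2-ROSA line 3, 2.06% were called between gPS OG2-ROSA and ESC, against 0.261%. For gPS OG2 against ESC, 4 calls became 33 with array weights and 9 without both dim gPS OG2-ROSA arrays, and 3 to 7 without single arrays. For gPS OG2-ROSA against ESC, 4 became 0 with only the groups compared and 1 with the ESC arrays averaged, and 0 to 10 without single arrays. Between the gPS backgrounds, 2 became 1 under normexp at offset 50, no background correction, the authors' processed values, no probe filter, the fibroblast covariate and medians of the tested probes. It became 0 with medians of all probes, only the groups compared, array weights, averaged ESC arrays and without both dim arrays, and 0 to 10 without single arrays. Between the GSC backgrounds the count was 0 to 1 without single arrays. The cause of these shifts was not tested.

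Same-numbered GSC and gPS lines of a background correlated at -0.16 to 0.0039 in their deviations from the group means. Same-numbered lines of 1 cell type correlated at -0.234 to 0.0821 across the backgrounds. With 3 arrays a group, such values do not settle whether the line numbers pair the samples. With the line number as a replicate block, 132 members were called between gPS and GSC (77 higher, 55 lower), 101 in OG2 (58 and 43) and 101 in OG2-ROSA (57 and 44), and 0 for the difference between backgrounds, between the gPS and between the GSC backgrounds. No block was run for comparisons with ESC, whose arrays share no line number, and the array chip was not run as a block, since no chip is named.

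Of 1748 values of 65 named members under the alternatives, 1694 kept direction and call, 24 lost the call, 10 gained it and 20 changed sign. With medians of all probes, the main change was -0.21 for Slc19a1, -0.17 for Slc30a1, -0.06 for Slc38a2, -0.21 for Slc3a2 and -0.23 for Slc25a32. With medians of the tested probes it was 0.05 for Slc7a5 and 0.18 for Slc7a8. The authors' processed values gave -0.03 for Slc25a32. With the fibroblast covariate it was -0.12 for Slc2a8, -0.08 for Slc30a1 and 0.49 for Slc40a1, and without both dim arrays -0.003 for Slc38a2 and 0.42 for Slc40a1. Without single arrays, Slc25a32 ranged from -0.06 to 0.16 and Slc3a2 from -0.25 to 0.70. Of these genes, Slc2a8 and Slc7a5 had been called in the main fit and the others had not.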

Other observations

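Other transporters and pumps moved in both directions. The counts here and in the next paragraph stand against 30.4% higher and 33.5% lower over all tested probes. Of 23 tested subunits of the sodium and proton pumps, which set the gradients that carriers use, 7 rose and 3 fell from GSC to gPS. The counts were 5 and 4 with medians of all probes and 11 and 2 with medians of the tested probes. The sodium pump subunit gene Atp1b1 rose by a log2 of 2.21 (limma adjusted p = 4.28e-07), and Fxyd5, a regulator of the same pump, had a change of -2.75 (adjusted p = 5.09e-05) with 2 gPS arrays detecting it. Of 16 tested ABC transporters and organic anion carriers of the Slco family, 4 rose and 6 fell (6 and 6 with medians of the tested probes). Slco4a1, a carrier of thyroid hormone and other organic anions, rose by 3.11 (adjusted p = 8.5e-07) though only 1 GSC array detected it, and Abcb6, a porphyrin transporter, had a change of -2.91 (adjusted p = 2.62e-08).

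Of 16 tested genes of iron, zinc and copper handling besides the carriers, 4 rose and 5 fell, with a median change of 0.04 that was -0.17 with medians of all probes (4 and 7) and 0.26 with medians of the tested probes (5 and 4). The transferrin receptor gene Tfrc rose by 1.13 and the metallothionein gene Mt2 by 2.08, while the ferritin heavy chain gene Fth1 had a change of -0.58 and Mt1 of 0.12, which did not pass. Of 2 tested carriers known from male germ cells, Slc2a8 and Slc9b2, the first rose by 0.68 and the second did not pass (-0.35), while with medians of all probes 0 rose and 1 fell, and the 1 tested imprinted carrier, Slc38a4, did not pass.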
